A study of Homo sapiens with 12 samples.

Results

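RDH10 and 9 further genes of retinoid metabolism were followed through 12 RNA-seq libraries of HGC-27, an established line of human gastric cancer cells. The 10 genes are rows of a table of 20345 Ensembl genes, found by their identifiers. RDH10 was chosen by its readout, because it passed the test for the GLUP effect in the libraries labelled TEAD4KO. RDH11, RDH13, RDH14, DHRS3, ALDH1A3, CRABP2, RARA, RARG and RXRA were added as relatives or partners of RDH10 and not for their values. There were 4 groups of 3 libraries, namely WT cells with no treatment, WT cells with the GLUP peptide, TEAD4KO cells with no treatment and TEAD4KO cells with the GLUP peptide. GLUP is a cyclic synthetic peptide built to link molecules of TEAD4, a DNA-binding transcription factor of the Hippo pathway. The methods of the study name the storage buffer of the peptide as the control, whereas the labels give the control cells as having no treatment. All 4 groups grew in the same medium with fetal bovine serum, and the sources do not say whether the TEAD4KO line is a single clone and speak of biological replicates without saying which libraries came from separate cultures.

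Cells take up vitamin A as retinol and turn it into retinoic acid, a signal for differentiation, in a pair of oxidation steps. RDH10 performs the slow, reversible step from retinol to retinal, and enzymes such as RDH11, RDH13, RDH14 and DHRS3 mostly run the reverse step. Aldehyde dehydrogenases of the ALDH1A family then make retinoic acid irreversibly, CRABP2 carries it to the nucleus, and heterodimers of a retinoic acid receptor (RARA, RARB or RARG) with a retinoid X receptor such as RXRA switch target genes. In the stomach and other epithelia this pathway is known for its part in keeping the lining differentiated. RARB and CYP26A1, which degrades retinoic acid, are classical direct targets of the receptors.

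A response element of those receptors is a pair of hexamers in the same direction, 5 bases apart, and it is shown here from the 2 listed promoters that carried it. The sequences are RefSeq promoter sequences on build GRCh38.p14, printed 5′ to 3′ on the plus strand, and capitals mark the hexamers. In RARB (chr3:25428190-25428246) they cover bases -53 to -37 from the transcription start. In CYP26A1 (chr10:93073783-93073839) they cover bases -90 to -74 and are read on the other strand. The third sequence is the 250 bases before a start of RARA (chr17:40341916-40342165), the receptor gene whose level followed that of RDH10 most closely among the members. Its capitals mark the TEAD binding core CATTCC, read on the other strand, at bases -106 to -101.
RARB: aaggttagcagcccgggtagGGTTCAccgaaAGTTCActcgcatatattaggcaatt
CYP26A1: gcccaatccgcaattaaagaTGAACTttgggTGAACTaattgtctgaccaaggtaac
RARA: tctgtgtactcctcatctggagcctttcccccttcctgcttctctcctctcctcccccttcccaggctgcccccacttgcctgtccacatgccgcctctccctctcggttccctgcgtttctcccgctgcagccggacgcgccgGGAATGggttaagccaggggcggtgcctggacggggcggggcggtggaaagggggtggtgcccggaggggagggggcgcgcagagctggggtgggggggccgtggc

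The search covered windows from 250 bases before to 50 bases after each start, on both strands, and took as a hexamer AGGTCA, its relative AGTTCA, the form GGGTCA or the form GGTTCA. The pair with 5 bases between was in 31 of 35116 windows (0.0883%), in none of the 9 members with a window and in 2 of 40 other listed genes. Pairs with 2 bases or 1 base between were also searched and were in 0.0399% and 0.131% of windows. Both were in 0 of the 9 members and in 0 of the 40 other listed genes. CATTCC was in 14% of all windows and in 5 of the members' 15 windows, which belong to RDH13, RDH14, DHRS3 and RARA. AGGTCA alone was in 13.8% of all windows and in 3 of those 15, which belong to RDH13, DHRS3 and RARA. These matches are letters in a window and were not tested for binding, and 6-letter words of this kind are common. RDH10 had no entry in the promoter table.

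The values are FPKM, fragment counts scaled to transcript length and to the mapped total of the library, which allow levels of different genes to be compared per length. Sequencing depth is not known from them, and totals ran from 375361 to 423757 FPKM. The transcript of TEAD4 itself was not lower but higher in the libraries labelled TEAD4KO, at 26.0 to 30.1 FPKM against 22.9 to 25.8 FPKM in WT. The difference was 0.17 untreated (log2, limma adjusted p 0.135) and 0.23 with GLUP (limma adjusted p 0.0479). A transcript can persist after an edit, so this check does not settle the genotype, but it does not bear out the label either. On the leading component of variation, which held 39.7% of the variance, TEAD4KO untreated 1 and TEAD4KO GLUP 16 lay nearest the WT libraries. For RDH10, RDH14, CRABP2, RARA, STRA6 and DHRS4 values are also given without both. As both were picked for their likeness to WT in these same values, leaving them out favours larger differences between the lines. Line differences and their p-values from those fits are therefore descriptions and not a separate check. Of 5 epithelial markers, KRT8 and CDH1 had a mean over 1 FPKM and KRT18, KRT19 and EPCAM stayed at or under 0.29 FPKM. CDH1 was at 2.99 to 3.68 FPKM in untreated WT and 2.04 to 2.43 with GLUP, a log2 difference of -0.42 (limma adjusted p 0.636). KRT8 was at 6.52 to 9.13 FPKM in untreated TEAD4KO and 4.12 to 6.37 with GLUP, a log2 difference of -0.52 (limma adjusted p 0.389), and at 5.07 to 5.55 in untreated WT. VIM, a mesenchymal gene, was at 1238 to 1369 FPKM in WT and 1348 to 1704 in TEAD4KO. For VIM, TEAD4KO lay above WT in each treatment without overlap. Of the other mesenchymal markers, CDH2 had a mean of 0.0846 FPKM. FN1 went the other way between the lines, at -0.35 untreated (log2, limma adjusted p 0.282) and -0.49 with GLUP (limma adjusted p 0.124). Only with GLUP did the lines not overlap for FN1. Of the 6 gastric markers, TFF1, TFF2 and GKN1 were at 0 in all libraries. The others, MUC5AC, MUC6 and CLDN18, stayed at or under 0.0275, 0.284 and 0.256 FPKM. No listed leukocyte or endothelial marker with a row had a mean of at least 1 FPKM. The fibroblast genes COL1A1, DCN and LUM summed to 355 to 373 FPKM in untreated WT, 365 to 402 in WT with GLUP, 324 to 414 in untreated TEAD4KO and 286 to 367 in TEAD4KO with GLUP, so these sums overlapped. Within the sum DCN (55.1 to 58.1 against 59.5 to 68.3 FPKM) and LUM (48.6 to 54.0 against 55.5 to 61.2 FPKM) were higher with GLUP in WT without overlap. COL1A1, the largest part of the sum, overlapped there (249 to 266 against 246 to 272 FPKM). In TEAD4KO all of these fibroblast genes overlapped between untreated and GLUP. VIM and the fibroblast genes were thus high beside low epithelial and gastric markers. This profile does not settle the origin of the cells, but it does not bear out a gastric origin either. The paper states that its cell lines were checked by fingerprinting, and it describes HGC-27 as undifferentiated. The identity of the cells was not tested here. The part of these markers in the results that follow was not tested.

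HGC-27 cells expressed a lopsided set of the members. CRABP2 had a mean of 299 FPKM over the 12 libraries and stood in the top 1.29% of the 11225 genes tested, those with a mean of at least 1 FPKM. RARG followed at 61.6, RDH10 at 36.0 and RDH11 at 32.6 FPKM. RARA (14.4), RXRA (10.1), RDH13 (7.12) and RDH14 (7.01) were intermediate and DHRS3 was low at 2.19 FPKM. ALDH1A3 was at 0.170 FPKM and was the only member under the limit, so 9 of the 10 were tested. RDH10 and RDH11, the most abundant members of opposite direction, thus had similar transcript levels, which do not measure enzyme activity. The listed retinal dehydrogenase with the highest level was ALDH1A1, at 2.55 to 3.94 FPKM.

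**Figure D1:**
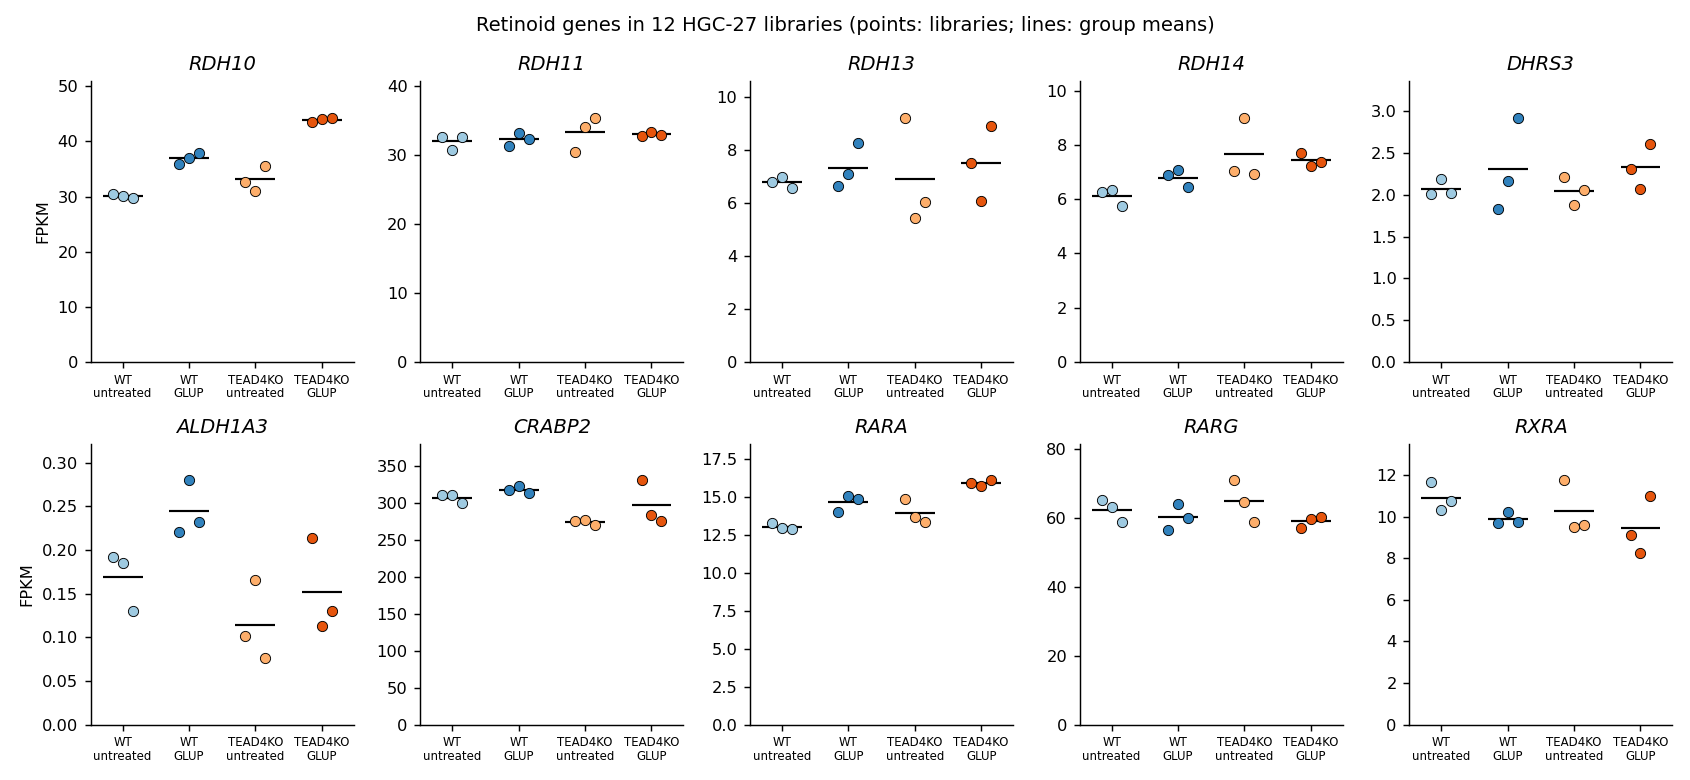
FPKM of the 10 retinoid genes (vertical axis, starting at 0, with its own range in each panel) in each of the 12 libraries (points), with the mean of each group of 3 as a line. RDH10 separates all 4 groups, RARA has its highest values in TEAD4KO with GLUP, CRABP2 is lower in untreated TEAD4KO than in untreated WT, and RDH11 is level across groups.

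RDH10 (ENSG00000121039, 74206837 to 74237516 on the plus strand of chromosome 8 in GRCh37) had a higher level with GLUP in both lines. In untreated WT its level was 30.4, 30.1 and 29.8 FPKM, and in WT with GLUP it was 35.9, 36.9 and 37.9 FPKM. In untreated TEAD4KO it was 32.7, 31.1 and 35.6 FPKM, and in TEAD4KO with GLUP it was 43.5, 44.0 and 44.3 FPKM. The 6 libraries with GLUP were all higher than the 6 without, and no pair of groups overlapped. From lowest to highest the group means were 30.1 ± 0.337 in untreated WT, 33.1 ± 2.29 in untreated TEAD4KO, 36.9 ± 0.99 in WT with GLUP and 43.9 ± 0.396 in TEAD4KO with GLUP (SD, n = 3). The highest untreated TEAD4KO library was just under the lowest WT library with GLUP, so those neighbours in the order were barely apart.

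The GLUP effect in WT compares libraries whose means did not enter the contrast that chose RDH10, although both comparisons used a spread estimated from all 12 libraries. There RDH10 was 0.28 ± 0.06 higher on the log2(FPKM + 1) scale (SE, 95% interval 0.16 to 0.41), that is 1.22-fold. Its unadjusted p of 0.00026549 was the 12th smallest of 11225. After Benjamini-Hochberg adjustment the limma p was 0.248, so RDH10 did not pass the threshold of 0.05 in WT. Without TEAD4KO untreated 1 and TEAD4KO GLUP 16, which enter only the shared spread, the limma adjusted p was 0.124. With array weights, which give noisier libraries less influence, it was 0.00462, and with only the WT libraries in the fit it was 0.0626. Over 22 alternatives the difference stayed between 0.26 and 0.30 (log2), the limma adjusted p ran from 0.00462 to 1, and RDH10 passed in 1 of them.

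In the TEAD4KO libraries, on which it was selected, RDH10 differed by 0.40 ± 0.06 (log2, SE), or 1.32-fold, which is a description and not a test. Without TEAD4KO untreated 1 and TEAD4KO GLUP 16 the difference was 0.39. The remaining contrasts share libraries with that choice and are also descriptions. RDH10 differed between TEAD4KO and WT by 0.13 untreated and by 0.25 with GLUP (log2), or by 0.14 and 0.24 without TEAD4KO untreated 1 and TEAD4KO GLUP 16, and the GLUP difference of TEAD4KO exceeded that of WT by 0.11 (95% interval -0.06 to 0.29). RPL7, a ribosomal protein gene at a mean of 749 FPKM, lies across RDH10 on the opposite strand, and the sources do not state whether counting used strand. RPL7 shares 0 of the 5331 exon bases of RDH10, and the antisense gene RDH10-AS1, not analysed here, shares 278 of them. The mean of RPL7 moved by -0.03 in WT and -0.06 in TEAD4KO with GLUP (log2). Between the lines RPL7 had the higher mean in TEAD4KO, as RDH10 did, at 709 against 814 FPKM untreated and 694 against 780 FPKM with GLUP. The RPL7 ranges of the lines overlapped in each treatment, and any part of RPL7 in the RDH10 values was not tested.

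RDH11, which reduces retinal back to retinol, did not follow RDH10. Its level was 32.6, 30.7 and 32.6 FPKM in untreated WT and 31.3, 33.1 and 32.3 FPKM in WT with GLUP. In the TEAD4KO libraries it was 30.3, 34.0 and 35.4 FPKM without peptide and 32.8, 33.3 and 32.8 FPKM with it. The groups overlapped, and the GLUP difference was 0.01 in WT (log2, 95% interval -0.12 to 0.15) and -0.01 in TEAD4KO (-0.14 to 0.13). The ratio of RDH10 to RDH11 FPKM was 0.943 ± 0.0351 in untreated WT and 1.145 ± 0.0282 in WT with GLUP (SD, n = 3). It was 0.999 ± 0.083 in untreated TEAD4KO and 1.33 ± 0.0153 in TEAD4KO with GLUP. The ratio was thus higher in all 6 libraries with GLUP than in the 6 without.

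RDH14, RDH13 and DHRS3 are further members of the short-chain dehydrogenase family that act on retinal, RDH13 in mitochondria. RDH14 was at 6.27, 6.34 and 5.75 FPKM in untreated WT and at 6.89, 7.06 and 6.45 FPKM in WT with GLUP. The TEAD4KO values were 7.04, 9.01 and 6.94 FPKM without GLUP and 7.71, 7.24 and 7.39 FPKM with it. Untreated TEAD4KO lay wholly above untreated WT, by 0.28 ± 0.09 (log2, SE), and the limma adjusted p was 0.1. Without TEAD4KO untreated 1 and TEAD4KO GLUP 16 the difference was 0.33 and the limma adjusted p 0.0386, whereas after correction for GC content and transcript length it was 0.17 and the limma adjusted p 0.286. RDH14 also overlaps the readthrough gene NT5C1B-RDH14, whose row had a mean of 0.00727 FPKM.

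RDH13 ranged from 5.42 to 9.21 FPKM and DHRS3, itself a target of retinoic acid, from 1.83 to 2.92 FPKM. The 3 libraries of untreated TEAD4KO held both the lowest and the highest RDH13 value, so its spread was the widest of the 9 tested members (SE 0.16 on the log2 scale). DHRS3 was at 2.00, 2.18 and 2.02 FPKM in untreated WT and at 1.83, 2.16 and 2.92 FPKM in WT with GLUP. For both genes the groups overlapped in all 4 comparisons of groups and no limma adjusted p was under 0.05.

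ALDH1A3, which makes retinoic acid from retinal, was too low to be tested. It was at 0.192, 0.186 and 0.130 FPKM in untreated WT, 0.220, 0.280 and 0.232 in WT with GLUP, 0.101, 0.166 and 0.076 in untreated TEAD4KO and 0.214, 0.113 and 0.130 in TEAD4KO with GLUP. The WT libraries with GLUP were above those without, and the TEAD4KO groups overlapped. At such levels the number of fragments behind a value may be small and is not known.

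CRABP2, the carrier that hands retinoic acid to its receptors, differed mainly between the lines. It was at 311, 312 and 299.8 FPKM in untreated WT and at 276, 277 and 270.5 FPKM in untreated TEAD4KO. With GLUP it was at 318, 323 and 314 FPKM in WT and at 331, 284 and 276 FPKM in TEAD4KO. Untreated TEAD4KO was wholly below untreated WT, by 0.16 ± 0.07 on the log2 scale (SE), and the limma adjusted p of 0.162 did not pass. With GLUP the lines overlapped because TEAD4KO GLUP 14 was the highest of the 12 libraries. Without TEAD4KO untreated 1 and TEAD4KO GLUP 16 the difference was -0.17 untreated (limma adjusted p 0.0701) and -0.05 with GLUP (limma adjusted p 0.532). It also depended on the scaling. After correction of each library for GC content and transcript length it was -0.34 untreated (limma adjusted p 0.0129) and -0.24 with GLUP (limma adjusted p 0.0224), and after quantile normalization it was -0.29 (limma adjusted p 0.0103) and -0.26 (limma adjusted p 0.0142).

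Differences moved with transcript length over all genes. Spearman's rho between the log2 difference and length was -0.52 untreated and -0.48 with GLUP over 11077 genes, which are not independent replicates. For GLUP rho was 0.24 in WT, 0.20 in TEAD4KO and 0.27 over both lines. The correction for GC content and length left the RDH10 difference with GLUP in WT at 0.26, and took its line differences to 0.16 untreated and 0.31 with GLUP (log2). For RARA it left the GLUP differences at 0.14 in WT and 0.22 in TEAD4KO, and took the untreated line difference from 0.09 to 0.0006.

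RARA and RARG, the receptors for retinoic acid, differed in level and in pattern. RARA was at 13.3, 12.97 and 12.9 FPKM in untreated WT and at 14.03, 15.1 and 14.9 FPKM in WT with GLUP. The TEAD4KO libraries had 14.9, 13.7 and 13.3 FPKM without GLUP and 15.9, 15.7 and 16.1 FPKM with it. In each line all GLUP libraries were above all untreated ones, by 0.16 ± 0.06 in WT and 0.18 ± 0.06 in TEAD4KO (log2, SE). Neither passed, with limma adjusted p of 0.999 in WT and 0.651 in TEAD4KO, and the effect over both lines was 0.17 ± 0.04 with a limma adjusted p of 0.177. It was 0.18 without TEAD4KO untreated 1 and TEAD4KO GLUP 16, with a limma adjusted p of 0.118.

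RARG was the main receptor, at 65.2, 63.0 and 58.9 FPKM in untreated WT and at 56.6, 64.0 and 59.9 FPKM in WT with GLUP. TEAD4KO cells had 70.9, 64.6 and 58.9 FPKM without GLUP and 57.0, 59.7 and 60.4 FPKM with it, so the groups overlapped in both lines. Its GLUP difference was -0.05 in WT and -0.13 in TEAD4KO (log2), and neither passed. As a share of the summed FPKM of RARA, RARB and RARG, RARG made up 81.4% ± 0.565 in untreated WT and 78.9% ± 0.497 in WT with GLUP (SD, n = 3). The share was 80.7% ± 0.591 in untreated TEAD4KO and 77.3% ± 0.487 in TEAD4KO with GLUP, and in each line the GLUP libraries did not overlap the untreated ones. RARA took up the difference, with 17.04% and 19.2% in WT and 17.4% and 20.8% in TEAD4KO. The shares were computed after the values were seen and are a description.

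RXRA, the partner that retinoic acid receptors need to bind DNA, was at 11.7, 10.3 and 10.8 FPKM in untreated WT and at 9.69, 10.2 and 9.75 FPKM in WT with GLUP. The TEAD4KO values were 11.8, 9.50 and 9.61 FPKM without GLUP and 9.13, 8.25 and 11.0 FPKM with it. The WT groups did not overlap, with GLUP lower by 0.13 ± 0.10 (log2, SE), and the TEAD4KO groups did. RXRB, a second retinoid X receptor, was nearly as abundant at 7.20 to 9.61 FPKM, and RXRA made up 49.9% to 59.7% of the summed FPKM of the retinoid X receptors.

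**Figure D2:**
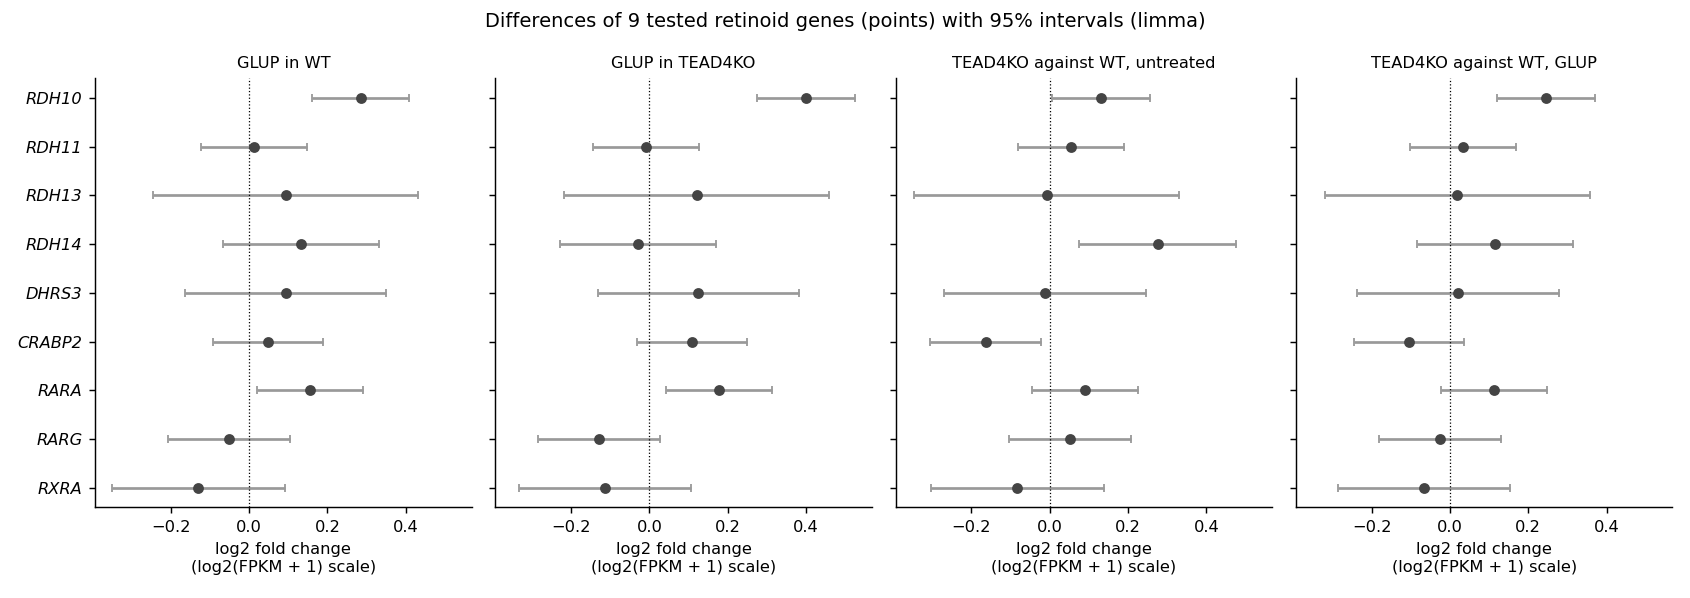
Log2 fold changes of the 9 tested members (points, horizontal axis on the log2(FPKM + 1) scale) with 95% intervals from limma (bars), in 4 comparisons. RDH10 is at 0.28 with GLUP in WT and 0.40 with GLUP in TEAD4KO, RARA at 0.16 and 0.18, and RDH11 within 0.01 of 0 in both.

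The members' counts were read against all genes tested. With GLUP in WT, 0 of the 9 members were called by limma at an adjusted p under 0.05, where 0.00891% of all genes were called. There 2 members had an unadjusted p under 0.05 (RDH10 and RARA), against 385 genes in all (3.43%). Groups did not overlap for 5 members, with RDH10, RDH14, CRABP2 and RARA higher and RXRA lower, where 17.3% of all genes did not overlap. The median log2 difference was 0.09 over the members and 0.01 over all genes. With GLUP in TEAD4KO, RDH10 alone was called, which the choice fixed, beside 0.0445% of all genes. By limma 2 members had an unadjusted p under 0.05 there, beside 6.38% of all genes. Groups did not overlap for RDH10 and RARA there, where 6.83% of all genes did not overlap, and the median was 0.11 over the members and -0.02 over all genes.

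Between the lines without treatment, 0 of the 9 members were called by limma beside 5.42% of all genes. There 3 of the 9 members were at an unadjusted p under 0.05, against 2434 genes in all (21.7%). Groups did not overlap for RDH10, RDH14 and RARA (higher in TEAD4KO) and CRABP2 (lower), beside 25.7% of all genes. Between the lines with GLUP, RDH10 was called beside 5.84% of all genes, and RDH10, RDH14 and RARA did not overlap beside 29.5% of all genes. By limma 1 member had an unadjusted p under 0.05 there, beside 23.9% of all genes. For the difference between the GLUP effects of the lines, limma called 0 of the 9 members beside 0.00891% of all genes. There 0 members had an unadjusted p under 0.05, against 284 genes in all (2.53%). For the GLUP effect over both lines RDH10 was called beside 0.303% of all genes, and the median was 0.08 over the members and -0.004 over all genes. By limma 2 members had an unadjusted p under 0.05 there, beside 7.54% of all genes. All calls of RDH10 rest on libraries that chose it.

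Much of the remaining pathway was near 0, and few of its tested genes passed. Of 43 further genes of retinoid uptake, storage, oxidation, breakdown and signalling, 42 had a row, 14 were tested and 23 had a mean under 0.1 FPKM. Those at 0 in all 12 libraries included LRAT, which esterifies retinol for storage, and the carriers RBP4 and CRABP1. The most abundant included the corepressor NCOR1 (22.7 to 32.8 FPKM) and FABP5 (22.4 to 32.02 FPKM), a carrier that can also bind retinoic acid. Limma called 0 of the 14 tested genes with GLUP in either line, over both lines, in the difference of GLUP effects or between untreated lines. At an unadjusted p under 0.05 there were 2 of the 14 with GLUP in WT (3.43% of all genes), 1 in TEAD4KO (6.38%), 2 over both lines (7.54%), 1 for the difference of effects (2.53%) and 2 between untreated lines (21.7%).

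Between the lines with GLUP, limma called 1 of the 14, where 5.84% of all genes were called, so this is near the general share. At an unadjusted p under 0.05 there was also 1 of the 14 (23.9% of all genes). The gene called was DHRS4, a retinal reductase found in peroxisomes. DHRS4 was at 6.19, 7.05 and 6.93 FPKM in WT with GLUP and at 9.63, 8.15 and 9.07 FPKM in TEAD4KO with GLUP. The difference was 0.36 ± 0.09 (log2, SE) and the limma adjusted p 0.0343. Leaving out 1 library at a time, the call was kept in 7 of 12 fits and lost without WT untreated 1, WT GLUP 14, 15 or 16, or TEAD4KO GLUP 14 (limma adjusted p up to 0.149), and with the correction for GC content and length the limma adjusted p was 0.0975. It was 0.0227 without TEAD4KO untreated 1 and TEAD4KO GLUP 16. DHRS4 has a paralog, DHRS4L2, at 3.26 FPKM and an antisense gene, DHRS4-AS1, and how reads were shared among them was not tested, so its values are uncertain.

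Of 19 genes known to respond to retinoic acid, 9 were tested, CRABP2, DHRS3, STRA6 and RARB among them, and limma called 0 of the 9 in any comparison, with at most 3 at an unadjusted p under 0.05, over both lines, where 7.54% of all genes were. All 9 had a positive GLUP difference in WT, with a median of 0.11 against 0.01 over all genes, and 7 of 9 had one in TEAD4KO, with a median of 0.13 against -0.02 (log2). Between the lines 7 of the 9 were lower in TEAD4KO in each treatment. The share of all genes with a positive difference was not counted. Of the targets not tested, 8 had a mean under 0.1 FPKM. The others had lower means with GLUP in WT, CYP26A1 at 0.463 and 0.390 FPKM and CYP26B1 at 0.469 and 0.410 FPKM (untreated and GLUP). In TEAD4KO their means were 0.562 and 0.525 FPKM, and 0.329 and 0.343 FPKM. The 3 most abundant of the 19 were CRABP2, MEIS2 (9.44 to 13.8 FPKM), a homeobox gene, and NRIP1 (5.82 to 8.13 FPKM), a corepressor. The targets whose promoters are printed above stayed low, RARB at 1.13 to 1.70 FPKM and CYP26A1 at 0.347 to 0.638 FPKM. CYP26A1 fell below the limit for testing. RARB differed with GLUP by 0.11 ± 0.10 in WT and -0.03 ± 0.10 in TEAD4KO (log2, SE).

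STRA6, the membrane receptor through which cells take up retinol, was picked out after its values were seen. It was at 4.32, 5.17 and 4.89 FPKM in untreated WT and at 6.61, 6.85 and 8.66 FPKM in WT with GLUP. TEAD4KO cells had 5.95, 3.70 and 5.29 FPKM without GLUP and 5.05, 5.55 and 7.44 FPKM with it. The WT groups did not overlap and differed by 0.53 ± 0.16 (log2, SE, limma adjusted p 0.869), and the TEAD4KO groups overlapped. With array weights the limma adjusted p was 0.0293 in WT and 0.0329 over both lines. STRA6 passed in only 1 of 22 alternatives in WT and in 1 of 21 over both lines. In both comparisons it passed in 0 of 12 fits without 1 library. Without TEAD4KO untreated 1 and TEAD4KO GLUP 16 the limma adjusted p was 0.253 in WT. Between the lines with GLUP the difference was then -0.40 (limma adjusted p 0.0445), the only 1 of 24 alternatives there that passed.

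**Figure D3:**
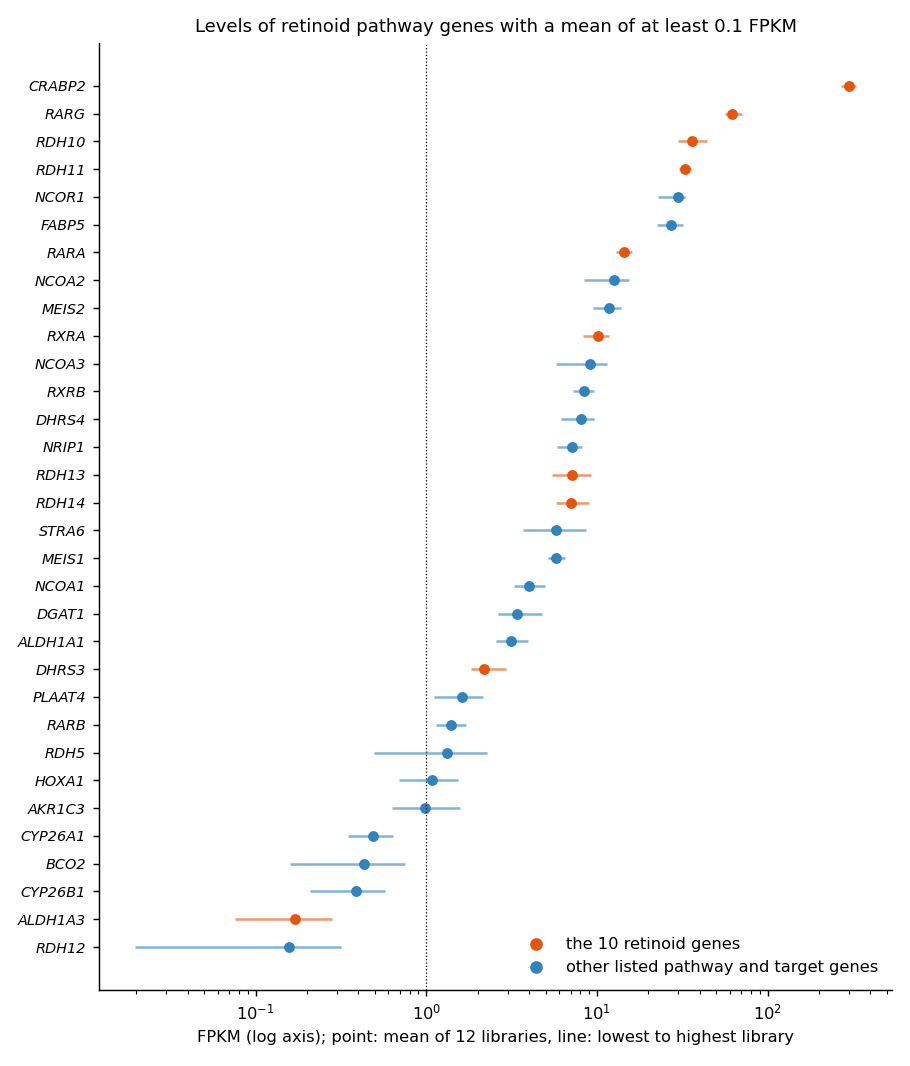
Mean FPKM over 12 libraries (points, log axis) and lowest to highest library (lines) of listed retinoid genes with a mean of at least 0.1 FPKM, the members in orange and other listed pathway and target genes in blue. The dotted line is the limit of 1 FPKM for testing, and CRABP2, RARG, RDH10 and RDH11 lead the list.

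**Figure D4:**
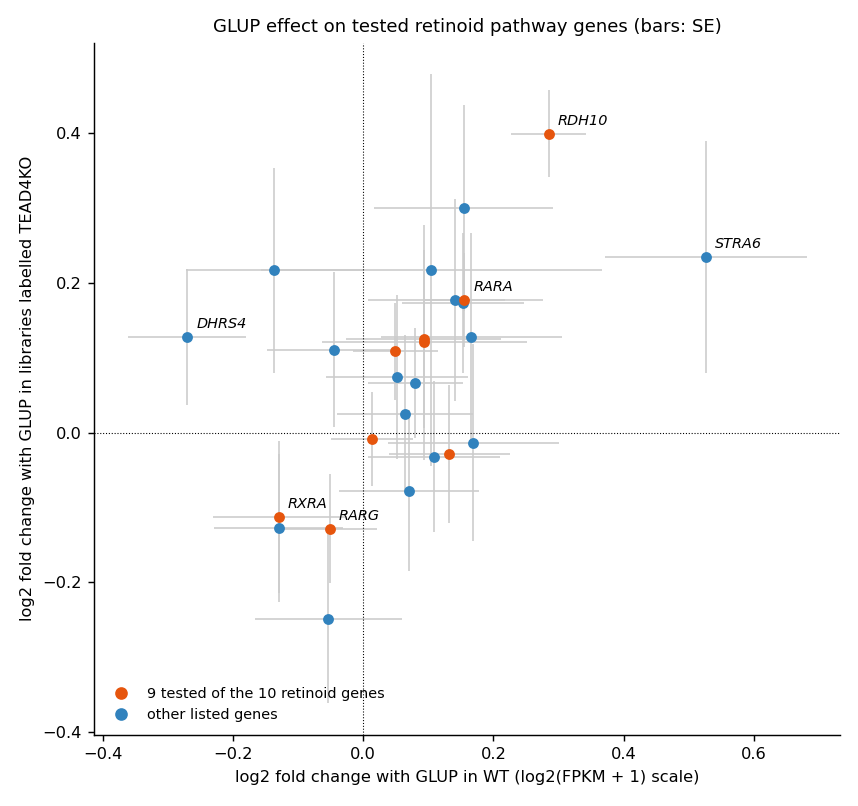
Log2 difference with GLUP in WT (horizontal axis) against that in the libraries labelled TEAD4KO (vertical axis) for tested retinoid genes, with bars of 1 SE. RDH10 lies at 0.28 and 0.40, STRA6 at 0.53 and 0.23, RARA at 0.16 and 0.18, and DHRS4 at -0.27 and 0.13.

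Over the 12 libraries the genes most like RDH10, by Pearson's r of log2(FPKM + 1) among 11224 others, were CLMP (r = 0.948), MB21D2 (0.925), DKK1 (0.921), F2R (0.919) and ETV1 (0.916). CLMP encodes a cell adhesion protein, DKK1 a secreted Wnt antagonist, F2R the thrombin receptor and ETV1 an ETS transcription factor. DKK1 had means of 77.7 FPKM in untreated WT, 113 in WT with GLUP, 109 in untreated TEAD4KO and 154 in TEAD4KO with GLUP. ETV1 had means of 6.58, 8.99, 6.27 and 11.2 FPKM in the same order, so unlike RDH10 it was not higher in untreated TEAD4KO. The libraries fall into the 4 groups, so r reflects the order of group means, and it is a description. RARA ranked 12th (r = 0.898, Spearman's rho 0.923), whereas RDH11 (0.25), CRABP2 (0.02), RARG (-0.47) and RXRA (-0.52) were far from RDH10.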

How the data were processed

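RNA-seq values of 12 HGC-27 libraries were deposited by the authors as FPKM, with 1 row per Ensembl gene and 1 column per library, not pooled. The submitters' processing notes name HISAT2, Cufflinks, RSEM and build hg19, with no roles or versions. FPKM divides by length and by the library's mapped total, so a few abundant genes can shift all others, and depth is unknown. Each column was assigned by the title of its sample, and 0 column pairs held identical values.

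The analysis used log2(FPKM + 1) of 11225 of the 20345 rows, those averaging 1 FPKM or more. A pseudocount of 1 understates changes of low genes. One model with 4 group means was fitted to all libraries with limma 3.58.1 in R 4.3.3 (eBayes with intensity trend), all tests were two-sided, with Benjamini-Hochberg adjustment over all rows tested. A call is an adjusted p under 0.05. The p-values measure the spread between libraries, which may be technical, and an exact permutation test of 3 against 3 cannot go below 0.1. In simulated data for GLUP in WT with 11225 genes, limma recovered 10.5% of genes changed 1.25-fold, 70.5% of those changed 1.5-fold and 97.5% of those changed 2-fold.

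The members and lists were chosen with earlier results of these data known. The text names all 10 members, listed genes called in any comparison other than GLUP in TEAD4KO, the 3 most abundant genes of each list, the 5 genes most like RDH10 and TEAD4. STRA6, RARB, CYP26A1, ALDH1A1, ALDH1A2, CYP26B1, AKR1C3, RXRB and genes at 0 were named after their values were seen. Some listed genes are not reported here, in the text or in the plots. Symbols came from a reference table by identifier (96.5% of rows). Gene positions came from GENCODE release 44 lifted to GRCh37. Promoter sequences came from RefSeq (GRCh38.p14) for 9 of the 10 members.

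Same-numbered libraries of the lines deviated from their group means with correlations of -0.06, 0.20 and -0.01 untreated and 0.11, 0.15 and 0.34 with GLUP. By the limit of 0.1 for every pair, the numbers were taken to pair the GLUP libraries and not the untreated ones, from the data alone. Alternatives covered the pseudocount, filter, scaling, variance model, samples in the fit, GC content and length (known for 98.7% of rows tested), the replicate block and each library left out.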

Additional observations from a re-analysis of the deposited data

Results flagged for a closer look

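Of 27 listed genes checked, 1 had all GLUP libraries of a line on one side of that line's untreated mean and all those of the other line on the opposite side. Other genes had fitted differences of opposite sign without meeting this. How many of all genes tested meet the rule was not counted, and the rule takes no account of the spread of the untreated libraries. DHRS4, the peroxisomal retinal reductase, was lower in every WT library with GLUP than the untreated WT mean (8.34 ± 0.94 FPKM untreated, 6.73 ± 0.465 FPKM with GLUP, SD, n = 3). It was higher in every TEAD4KO library with GLUP than the untreated TEAD4KO mean (8.09 ± 0.268 and 8.95 ± 0.749 FPKM). The log2 difference between the GLUP effects was 0.40 ± 0.13 (SE), and its limma adjusted p of 0.9998 did not pass. Groups of 3 libraries are too small for a check of single outlying values.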

How the results depend on the processing

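The number of members called was recomputed under each alternative. With GLUP in WT it was 0, became 1 (RDH10) with array weights, and was 0 in all fits without 1 library. With GLUP in TEAD4KO it was 1 (RDH10) and became 0 with a fold change over 2 also needed, without the intensity trend, with array weights, with only the groups compared in the fit, and with TEAD4KO untreated 1 and TEAD4KO GLUP 16 both left out, an alternative chosen after seeing the data. It ranged from 0 to 1 in fits without 1 library and stayed at 1 only without TEAD4KO untreated 3. Over both lines it was 1 and became 0 with a fold change over 2 also needed, and RDH10 was called at an adjusted p under 0.05 in 21 of 21 other fits. Those fits include the TEAD4KO libraries that chose RDH10, so this is a description and not a check. Between untreated lines the number of members called was 0 and became 1 with quantile normalization or GC and length correction (CRABP2) and with both libraries left out (RDH14), with 0 in all fits without 1 library. Between lines with GLUP it was 1 and became 0 with a fold change over 2 also needed and 2 with GC and length correction (RDH10 and CRABP2), while quantile normalization gave CRABP2 in place of RDH10. It ranged from 0 to 1 in fits without 1 library and was lost without any of WT GLUP 14, 15 and 16 and TEAD4KO GLUP 14 and 15. For the difference of GLUP effects it was 0 throughout. The cause was not tested.

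The replicate block paired same-numbered libraries in both treatments, so also the untreated ones, which were not taken as paired. The main fit used no pairing. With the replicate block the members called were 0 between untreated lines and 1 between lines with GLUP. With the block and GC and length correction together they were 1 (CRABP2) and 2 (RDH10 and CRABP2). The block changed no other call of a member. It moved the genes called between lines with GLUP from 656 to 1064.

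Over all genes, array weights called 61 in place of 1 with GLUP in WT, 2487 in place of 656 between lines with GLUP and 109 in place of 34 over both lines. GC and length correction called 196 in place of 608 between untreated lines, 426 in place of 656 with GLUP and 55 in place of 34 over both lines. With both doubted libraries left out, 2231 and 3121 genes were called between the lines in place of 608 and 656. That step removes the TEAD4KO libraries nearest WT, so larger line differences follow in part from the choice. Of 1200 alternative log2 values of members, 1161 kept their side of the threshold and, where not called, moved by less than 1 SD between replicates, 10 moved by more, 21 lost a call and 8 gained one. Among values with no call 62 changed sign, and 0 called values did. Of the line differences that were not called, GC and length correction took RARA untreated from 0.09 to 0.0006 and RDH14 with GLUP from 0.11 to 0.04 (log2). Depth is unknown, so precision rests on 3 libraries a group.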

Other observations

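Some low genes of the pathway are described here and were named after their values were seen. AKR1C3, an aldo-keto reductase that can reduce retinal, was just under the limit for testing with a mean of 0.979 FPKM. It was at 0.664, 0.681 and 0.628 FPKM in untreated WT and at 0.883, 0.737 and 0.902 FPKM in WT with GLUP. TEAD4KO cells had 0.746, 1.06 and 0.897 FPKM without GLUP and 1.59, 1.44 and 1.52 FPKM with it. In each line the GLUP libraries were all above the untreated ones, and the untreated TEAD4KO libraries overlapped the WT libraries with GLUP. Of the genes tested, which do not include AKR1C3, 17.3% in WT and 6.83% in TEAD4KO did not overlap between untreated and GLUP. CYP26B1, which breaks down retinoic acid, was at 0.208 to 0.576 FPKM, and ALDH1A2, a maker of retinoic acid, was at no more than 0.306 FPKM in any library.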
